A study of Rattus norvegicus with 9 samples.

Results

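The immediate early transcription factors Fos, Fosb, Fosl1, Jun, Junb, Jund, Atf3, Egr1, Nr4a1 and Ier2 were followed array by array in a small artery of normotensive and hypertensive rats. The genes were taken as a list, and every probeset whose RAE230A annotation gives one of their symbols was used, which made 14 probesets of 10 genes among the 15923 probesets of the array. Of these, 9 probesets of 7 genes passed the limit on low signals described below. Expression was measured on 9 Affymetrix RAE230A arrays, 3 for each of 3 groups, in the first side branch of the saphenous artery. The WKY group were untreated male Wistar-Kyoto rats, an inbred normotensive strain, aged 16 weeks. The ACTH group were male rats of the WKY strain, also sampled at 16 weeks, which had received adrenocorticotropic hormone (ACTH) subcutaneously at a labelled dose of 0.1 mg/kg/day from week 12 for 4 weeks. ACTH drives the adrenal cortex to release corticosterone and raises blood pressure in this strain. The SHR group were untreated male spontaneously hypertensive rats (SHR) of 16 weeks, a genetic model of hypertension. Each array held RNA pooled from 2 to 3 rats, so that the spread between arrays is a spread between pools. The WKY rats are labelled as untreated, and therefore the hormone and its daily administration cannot be told apart.

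Immediate early genes are transcribed within minutes of a stimulus without new protein synthesis, and their mRNA is short-lived. Fos proteins pair with Jun proteins to form the transcription factor AP-1, and Atf3 can pair with Jun proteins as well. Egr1 and the orphan nuclear receptor Nr4a1 bind DNA sites of their own. In the arterial wall these genes are known to respond to stretch, growth factors, vasoconstrictors and injury, and also to the removal of the tissue itself. All groups shared the same handling as far as the labels describe it. Rats were under ether at decapitation, the branch was placed in RNAlater and cleaned in cold buffered saline, and arteries were then snap frozen. The time between death and immersion, the order in which animals were sampled and the hour of sampling are not given in the sources used here.

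Many of these genes are switched on through the serum response factor, which binds the CArG box, and through CREB, which binds the cyclic AMP response element (CRE). RefSeq promoters in the rat build GRCr8, running from 250 bases before to 50 bases after the annotated start, were found for 7 of the 10 genes, namely Fosb, Fosl1, Junb, Jund, Egr1, Nr4a1 and Ier2. The 3 promoters below are of the members outside the AP-1 and ATF families and are shown because they differ in the letters they hold. They are given 5′ to 3′ on the gene's own strand, and capitals mark the CArG box, the CRE (TGACGTCA) and the CRE half-site (TGACG), all searched on both strands. The Egr1 window lies at chr18:26736828-26737127, the Nr4a1 window at chr7:134259888-134260187 and the Ier2 window at chr19:40399123-40399422, each on the plus strand.
Egr1: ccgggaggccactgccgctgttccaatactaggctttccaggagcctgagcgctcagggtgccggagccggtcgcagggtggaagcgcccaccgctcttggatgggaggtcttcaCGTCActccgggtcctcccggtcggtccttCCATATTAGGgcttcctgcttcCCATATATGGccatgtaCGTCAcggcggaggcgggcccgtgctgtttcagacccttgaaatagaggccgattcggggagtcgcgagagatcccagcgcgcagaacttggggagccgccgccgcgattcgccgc
Nr4a1: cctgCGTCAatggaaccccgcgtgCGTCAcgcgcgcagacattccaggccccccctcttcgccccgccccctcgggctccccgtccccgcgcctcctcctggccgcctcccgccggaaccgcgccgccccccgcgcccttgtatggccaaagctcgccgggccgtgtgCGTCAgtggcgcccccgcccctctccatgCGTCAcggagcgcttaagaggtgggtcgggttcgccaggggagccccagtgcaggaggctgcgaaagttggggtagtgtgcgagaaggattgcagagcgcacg
Ier2: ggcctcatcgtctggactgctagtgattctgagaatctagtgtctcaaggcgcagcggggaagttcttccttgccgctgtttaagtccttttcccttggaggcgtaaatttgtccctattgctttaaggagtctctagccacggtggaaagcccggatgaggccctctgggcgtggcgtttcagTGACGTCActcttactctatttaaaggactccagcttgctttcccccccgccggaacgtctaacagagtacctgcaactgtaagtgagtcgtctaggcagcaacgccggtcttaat

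The Egr1 window held 2 CArG boxes, 105 and 83 bases before the start, and 2 CRE half-sites. Of 33469 RefSeq promoter windows of this length, 1.64% held at least 1 CArG box and 0.0209% at least 2. The Nr4a1 window had no CArG box and held 4 CRE half-sites, which 0.236% of windows matched or exceeded, against 21.2% with at least 1. The Ier2 window held a whole CRE, present in 1.83% of windows, 66 bases before the start, and this site accounts for both of its half-site matches. Among the others, Jund held 1 CRE, Fosl1 2 half-sites and Junb 1. The AP-1 site TGANTCA was found in 0 of the 7 windows and in 7.33% of all windows. These matches describe letters within the windows only.

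The authors made each value with the MAS5 algorithm, which summarises the probes of a probeset into a signal, and scaled every array to a target of 150. Signals are printed on that linear scale in the order of arrays 1, 2 and 3, and differences are on the log2 scale with their standard errors (n = 3 arrays per group). A probeset was kept when its third-highest signal over the 9 arrays was at least 45, which left 9038 probesets. Each of the 9 member probesets kept exceeded 45 on all ACTH and all SHR arrays. Differences were tested with limma, p-values were adjusted over the 9038 probesets by the Benjamini-Hochberg method, and a probeset is called where the adjusted p is under 0.05. Median signals of the arrays were 52.3 to 58.1. The 8 smooth muscle markers, Tagln the brightest, summed to between 20842 and 23594 on every array, so that the sum for the labelled tissue was high throughout. Among them Des was called lower in SHR than in WKY (-1.45 ± 0.22, limma adjusted p = 0.00682). It was also called lower in SHR than in ACTH (-1.25 ± 0.22, limma adjusted p = 0.0130). Arrays were scanned on 4 days. WKY 1 and WKY 3 were each scanned alone, WKY 2 with SHR 1 and SHR 2, and the 3 ACTH arrays with SHR 3.

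Fos, the inducible partner of Jun in AP-1, varied most among the kept member probesets, its highest signal being 18.3 times its lowest. Its signal (1375043_at) was 56.1, 364 and 40.0 in WKY, 445, 609 and 731 in ACTH, and 220, 200.5 and 169 in SHR. All ACTH arrays lay above all WKY and all SHR arrays, and WKY 2 lay among the hypertensive arrays, far from WKY 1 and WKY 3. Within WKY the highest signal was 9.11 times the lowest, compared with 1.64 in ACTH and 1.31 in SHR. The ACTH minus WKY difference was 2.64 ± 0.64, or 6.23-fold, and did not pass the test (limma adjusted p = 0.0955). The SHR minus WKY difference was 1.06 ± 0.64 (limma adjusted p = 0.439), and the SHR minus ACTH difference -1.58 ± 0.64 (limma adjusted p = 0.238). These standard errors share 1 estimate of the spread, which includes the WKY arrays. In a fit of ACTH and SHR alone the SHR minus ACTH difference was -1.58 ± 0.21 and was called (limma adjusted p = 0.00746). A second Fos probeset (1371283_at) was dim on every array, with signals of 4.02 to 46.3, and was not kept.

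**Figure D1:**
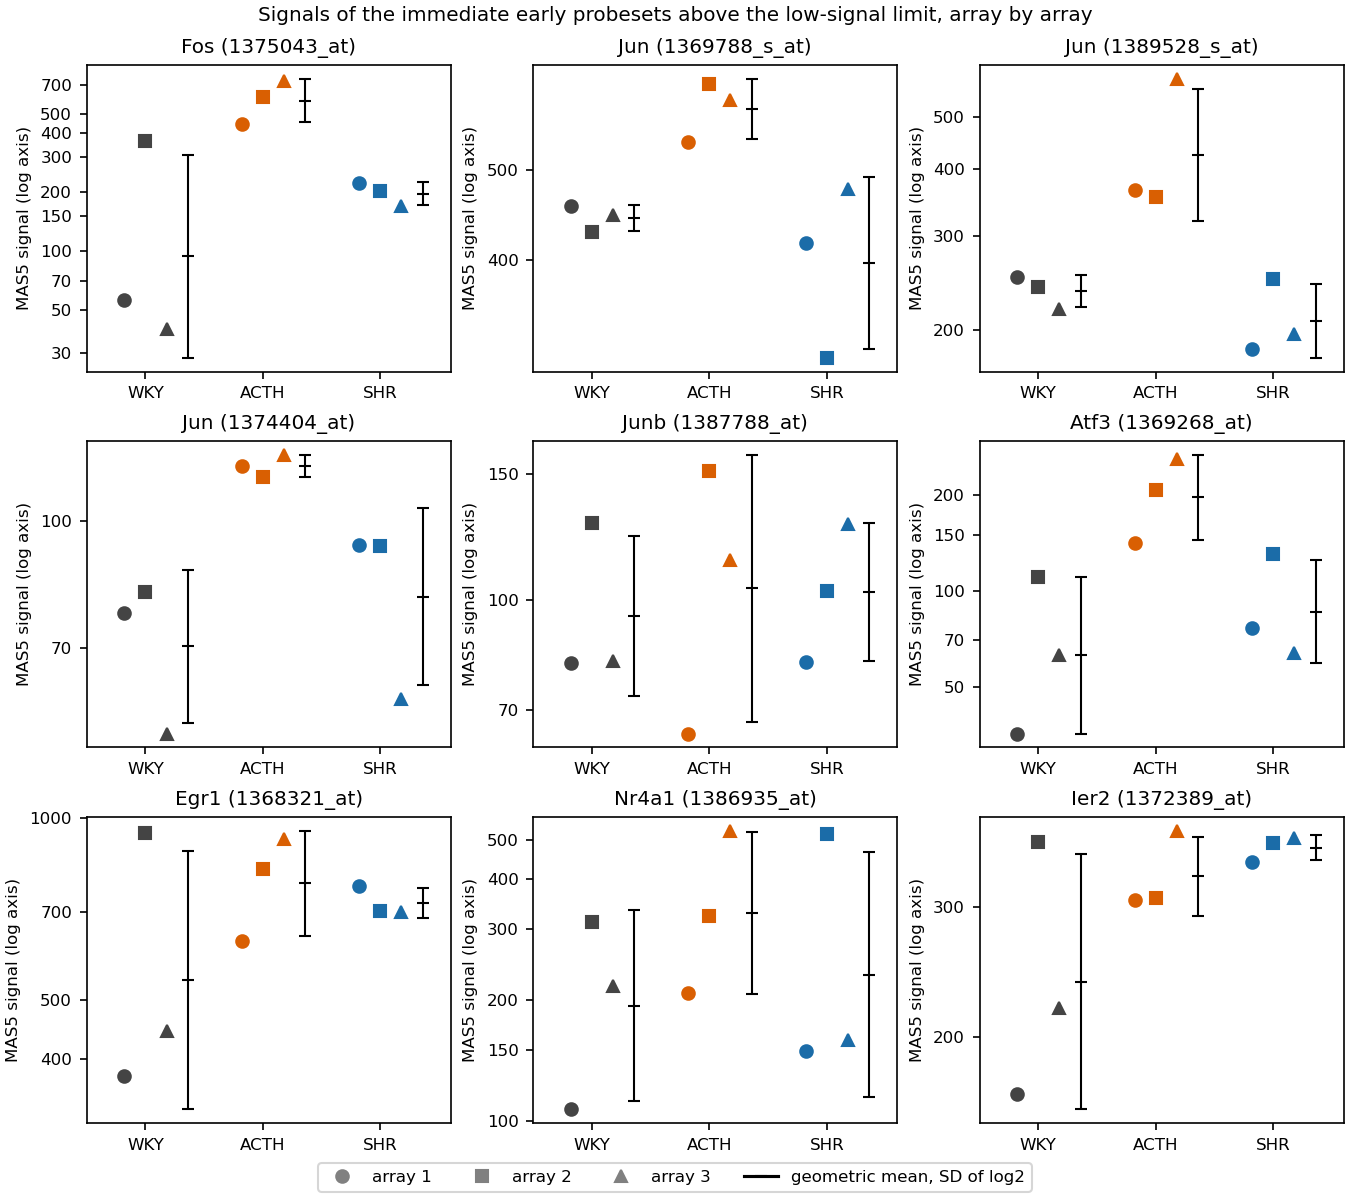
MAS5 signal (log axis) of the 9 immediate early probesets that were kept, by group; each point is 1 array with its replicate number as the symbol, and the bar is the geometric mean with the SD of log2 signals (n = 3). The ACTH points of Fos, Jun and Atf3 lie above all WKY points, while WKY 2 (square) lies among or above the ACTH points for Egr1, Nr4a1, Junb and Ier2.

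Jun, the main transactivating partner of Fos, was read by 3 kept probesets, and ACTH was the highest group in each. The first (1369788_s_at) gave 457, 429 and 447 in WKY, 535, 617 and 594 in ACTH, and 417, 315 and 477 in SHR. The second (1389528_s_at) gave 251, 240.0 and 219 in WKY, 366, 355 and 589.8 in ACTH, and 184, 249 and 196 in SHR. The third (1374404_at), which the annotation ties to the same accession as the second, gave 77.2, 81.8 and 55.1 in WKY, 116, 113 and 120.3 in ACTH, and 93.6, 93.2 and 60.7 in SHR. The 3 ACTH arrays lay above all other arrays in each of the 3 probesets, and the WKY 2 value stood close to those of WKY 1 and WKY 3. ACTH minus WKY differences were 0.39 ± 0.17, 0.85 ± 0.21 and 0.73 ± 0.21 in the same order (limma adjusted p = 0.371, 0.0986 and 0.151). SHR minus WKY differences were -0.16 ± 0.17, -0.19 ± 0.21 and 0.20 ± 0.21 (limma adjusted p = 0.666, 0.700 and 0.665). In SHR compared with ACTH, Jun was lower by the second probeset, with a difference of -1.03 ± 0.21 (95% interval -1.49 to -0.57), or 0.489 of the ACTH level, which passed the test (limma adjusted p = 0.0246). The first and the third gave -0.55 ± 0.17 and -0.53 ± 0.21 in that comparison and did not pass (limma adjusted p = 0.113 and 0.218). The call was lost without ACTH 1, ACTH 3, SHR 1 or SHR 3, with adjusted p-values of 0.0529, 0.0729, 0.0665 and 0.0797, and with scan day as a block (0.286), where the difference was -1.12.

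Junb, a Jun family member that often restrains Jun, showed no group order. Its signal (1387788_at) was 81.4, 128 and 81.9 in WKY, 65.0, 151 and 113.5 in ACTH, and 81.8, 103 and 128 in SHR. The arrays of the groups overlapped in every comparison. Differences were 0.13 ± 0.31 for ACTH minus WKY, with a 95% interval of -0.55 to 0.80, and 0.11 ± 0.31 for SHR minus WKY, with an interval of -0.57 to 0.79. Adjusted p-values by limma were 0.916 and 0.890, and 0.983 for SHR minus ACTH (-0.02 ± 0.31).

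The remaining AP-1 members gave little signal. Fosb (1373759_at) ran from 7.16 to 55.8 over the 9 arrays and Fosl1, the Fos relative known as Fra-1, from 6.90 to 43.3 (1368489_at). Jund, usually the constitutive member of the family, ran from 3.10 to 25.1 and from 2.27 to 12.3 by its 2 probesets (1375768_at and 1387762_s_at). On every array these probesets, and the dim Fos probeset, lay below the 50th percentile of signals. The deposited table holds no detection calls, so that presence cannot be read from it. In a fit over all 15866 non-control probesets 0 of these 5 were called by limma in any comparison, with adjusted p-values of 0.56 or more and 0 under an unadjusted p of 0.05. That fit called 0%, 0.454% and 0.328% of the 15866 in ACTH against WKY, SHR against WKY and SHR against ACTH.

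Atf3, a stress-induced factor of the ATF/CREB family that pairs with Jun proteins, followed an order close to that of Fos. Its signal (1369268_at) was 35.6, 111 and 62.8 in WKY, 141, 207 and 259.7 in ACTH, and 76.6, 130.3 and 63.6 in SHR. Every ACTH array lay above every other array, and WKY 2 was the highest WKY array. The ACTH minus WKY difference was 1.65 ± 0.40, or 3.13-fold, and missed the threshold (limma adjusted p = 0.0955). The SHR minus WKY difference was 0.45 ± 0.40 (limma adjusted p = 0.611), and SHR minus ACTH was -1.19 ± 0.40 (limma adjusted p = 0.151).

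Egr1, a zinc finger factor and the gene with paired CArG boxes above, had its highest and its lowest signal in the same group. The signal (1368321_at) was 375, 945 and 445 in WKY, 627, 824 and 922 in ACTH, and 774, 702 and 699 in SHR. The highest of all 9 arrays was WKY 2, and the lowest were WKY 1 and WKY 3, so that ACTH and SHR overlapped WKY only through WKY 2. Differences were 0.53 ± 0.30 for ACTH minus WKY (limma adjusted p = 0.537), 0.42 ± 0.30 for SHR minus WKY (limma adjusted p = 0.511) and -0.11 ± 0.30 for SHR minus ACTH (limma adjusted p = 0.888). Nr4a1, the nuclear receptor whose promoter window held 4 CRE half-sites, gave 107, 312 and 217 in WKY, 208, 323 and 526 in ACTH, and 149, 518 and 158 in SHR (1386935_at). SHR 2 and ACTH 3 were highest, and the range within each group exceeded the differences between groups. These were 0.76 ± 0.53, 0.26 ± 0.53 and -0.51 ± 0.53 in the same order (limma adjusted p = 0.630, 0.850 and 0.683). Ier2, a small nuclear protein of the immediate early response whose promoter window held the CRE, gave 167, 368 and 219 in WKY, 307, 309 and 381 in ACTH, and 346, 367 and 372 in SHR (1372389_at). SHR arrays were nearly equal, while WKY 2 again stood with the hypertensive arrays. Its differences were 0.48 ± 0.25 for ACTH minus WKY, 0.60 ± 0.25 for SHR minus WKY and 0.13 ± 0.25 for SHR minus ACTH (limma adjusted p = 0.493, 0.259 and 0.841).

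For ACTH against WKY, which asks what hormone treatment within a strain changed, 0 of the 9 member probesets were called by limma, where 1.25% of all kept probesets were (50 higher and 63 lower). At an unadjusted p under 0.05 there were 5, beside 12.5% of all kept probesets. The arrays of the groups did not overlap for 5 of the 9, which were Fos, Atf3 and the 3 Jun probesets, all higher in ACTH, while 20.5% of all kept probesets did not overlap. The median difference of the members was 0.73 on the log2 scale and that of all kept probesets 0.02, and all 9 member differences were positive. With the thresholds of the study's methods, an unmoderated F test at 0.02 and a contrast at 0.015, the Jun probeset 1389528_s_at passed, as did 4.16% of kept probesets, and after Benjamini-Hochberg adjustment of that test 0 members passed.

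For SHR against WKY, the comparison of strains, 0 of the 9 were called by limma, where 2.04% of all kept probesets were, and 1, Ier2, was under an unadjusted p of 0.05, beside 16.4% of all kept probesets. The groups did not overlap for 0 of the 9, against 19.3% of all kept probesets. Differences were positive for 7 and the median was 0.26, beside -0.00 for all kept probesets. For SHR against ACTH, the direct comparison of both models, 1 of 9 was called, the Jun probeset above, where 3.41% of all kept probesets were. Signals did not overlap for 5 of 9, again Fos, Atf3 and the 3 Jun probesets, all lower in SHR, beside 25.0% of all kept probesets. Differences were negative for 8 of 9, with a median of -0.53, beside -0.02 for all kept probesets. In the F test over the 3 groups the same Jun probeset was called (limma adjusted p = 0.0346), which makes 1 of 9 beside 4.12% of all kept probesets. These comparisons share arrays: the ACTH arrays enter the first and the third, and the WKY arrays the first and the second.

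**Figure D2:**
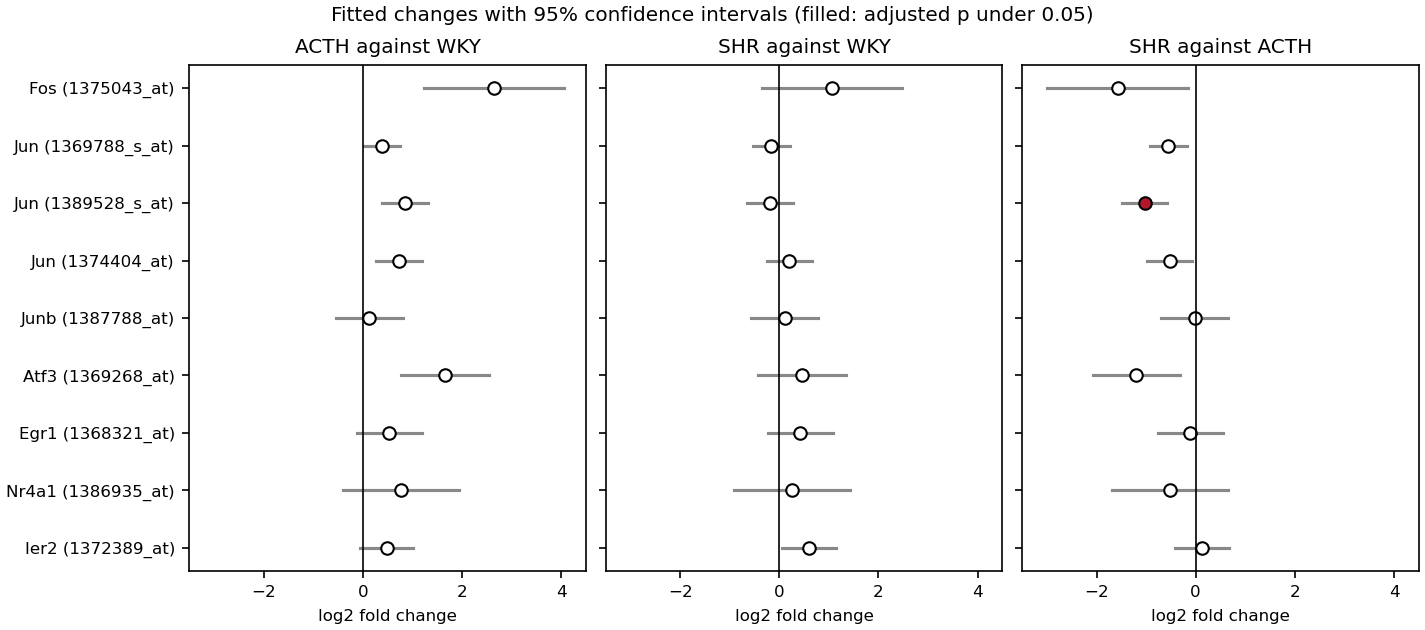
Log2 fold changes of the 9 kept probesets in the 3 comparisons, as points with 95% confidence intervals from limma; a filled point has an adjusted p under 0.05. The only filled point is the Jun probeset 1389528_s_at in SHR against ACTH at -1.03, and the widest intervals are those of Fos and Nr4a1.

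Read along the arrays, most members shared an order, with WKY 1 and WKY 3 low and WKY 2 with the ACTH arrays. The mean deviation of the 7 genes from their own mean over the 9 arrays, each gene by its brightest probeset, was -0.96 in WKY 1, 0.31 in WKY 2 and -0.68 in WKY 3. It was 0.10, 0.60 and 0.78 in ACTH and -0.17, 0.16 and -0.14 in SHR. All 7 genes exceeded their mean in ACTH 2 and ACTH 3, 6 did so in WKY 2, and 0 in WKY 1 and WKY 3. The ACTH 1 array had 4 genes above their mean, and the SHR arrays 3, 5 and 4. WKY 2 was the highest WKY array in 7 of 9 probesets and 6 of 7 genes, Jun being the exception, whereas it was the highest in 35.0% of all kept probesets. It exceeded the mean log2 signal of WKY 1 and WKY 3 at least 2-fold in 4 probesets, by 7.69-fold for Fos, 2.34-fold for Atf3, 2.31-fold for Egr1 and 2.05-fold for Nr4a1, and 1.45% of all kept probesets did so. Over all kept probesets WKY 2 correlated with WKY 1 and WKY 3 at 0.959 for both, where WKY 1 and WKY 3 correlated at 0.957. It correlated with ACTH 1 at 0.961 and with SHR 3 at 0.960, slightly above its correlations within WKY. With ACTH 2 (0.957), ACTH 3 (0.952), SHR 1 (0.930) and SHR 2 (0.947) it correlated less than within WKY.

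**Figure D3:**
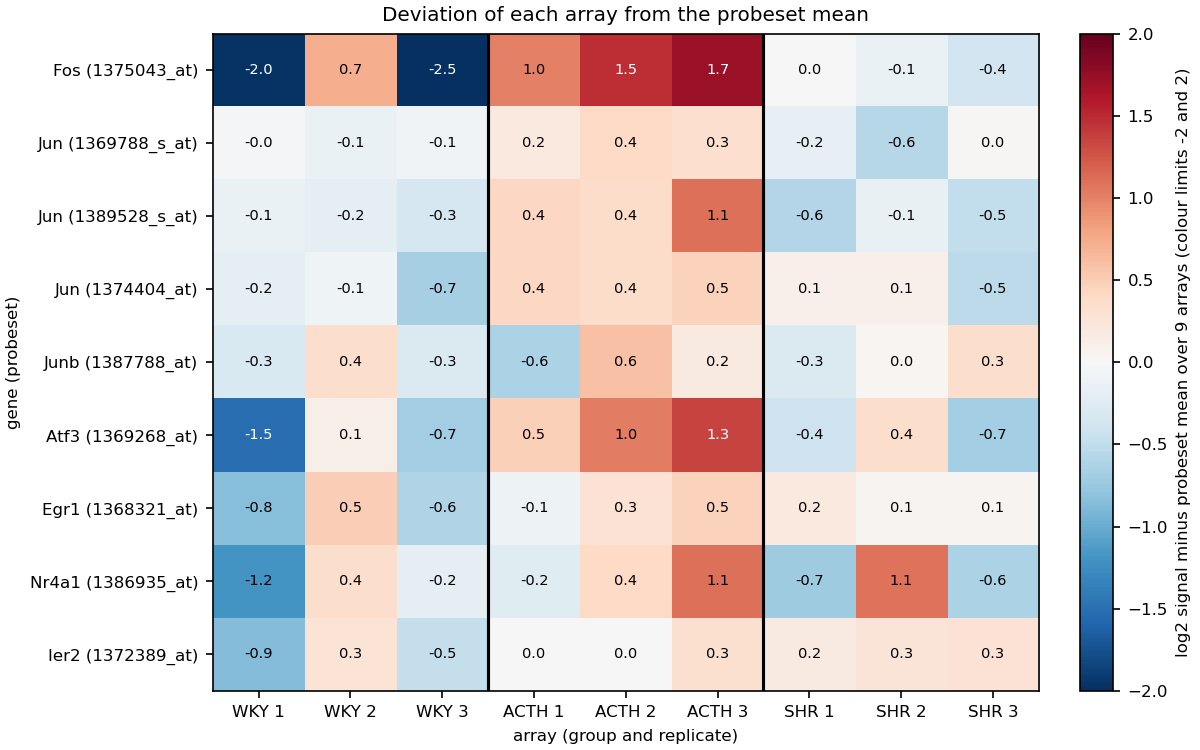
Heat map of log2 signal minus the probeset's mean over the 9 arrays, with a row for each of the 9 kept probesets and a column for each array; colours stop at -2 and 2 and the numbers give the values. WKY 1 and WKY 3 are blue for most rows, and WKY 2 is red for Fos, Junb, Egr1, Nr4a1 and Ier2 but not for the Jun rows.

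The ACTH values were set against WKY 2 alone, since this array held the highest control values. All 3 ACTH arrays exceeded WKY 2 for Fos, Atf3 and the 3 Jun probesets, 2 did so for Nr4a1, 1 for Junb and Ier2, and 0 for Egr1. Of the SHR arrays, 0 exceeded WKY 2 for Fos, Junb and Egr1. Without WKY 2, Fos and Atf3 were called in ACTH against WKY, with differences of 3.62 ± 0.24 and 2.06 ± 0.37 (limma adjusted p = 0.000642 and 0.0280). In SHR against WKY, Fos and Ier2 were then called, with 2.04 ± 0.24 and 0.92 ± 0.18 (limma adjusted p = 0.00363 and 0.0308), and in SHR against ACTH Fos joined Jun, with -1.58 ± 0.22 (limma adjusted p = 0.00607). Without WKY 2, 136, 225 and 311 of the 9038 kept probesets were called in these comparisons. Leaving out another WKY array lowered some values and raised others. In ACTH against WKY the 3 Jun differences rose to 0.41, 0.89 and 0.80 without WKY 1, and Nr4a1 rose to 0.85 without WKY 3. Without WKY 3 the Fos difference was 2.03 ± 0.61 in ACTH and 0.45 ± 0.61 in SHR (limma adjusted p = 0.235 and 0.770). Without WKY 1 the Atf3 difference was 1.24 ± 0.37 in ACTH and 0.04 ± 0.37 in SHR (limma adjusted p = 0.214 and 0.976), and the Ier2 difference in SHR was 0.35 ± 0.22 (limma adjusted p = 0.537). No label gives a reason to leave any of these arrays out.

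Scan day was set beside these values because WKY 2 shared its day with SHR 1 and SHR 2. Within that day SHR minus WKY was -0.79 for Fos, -0.36 for Egr1, -0.16 for Nr4a1, -0.48 for Junb, -0.15 for Atf3 and -0.04 for Ier2, each opposite in sign to the value over all arrays. The 3 Jun probesets, at -0.24, -0.17 and 0.19, kept their sign. Within the day of the ACTH arrays, SHR 3 minus ACTH was -1.79 for Fos, -1.63 for Atf3, -1.05 for Nr4a1, -0.16 for Egr1, 0.17 for Ier2 and -0.28, -1.12 and -0.94 for the Jun probesets, each in the direction seen over all arrays. Junb, at 0.30, turned. No day held both WKY and ACTH arrays, and a fit blocked by scan day, with 3 residual degrees of freedom, gave ACTH minus WKY differences of 0.99 ± 0.42 for Fos and 1.48 ± 0.59 for Atf3 which add ACTH minus SHR 3 on 1 day to SHR 1 and SHR 2 minus WKY 2 on another. In that fit limma called 0 of the 9 in each comparison, and 0%, 0.277% and 0.376% of all kept probesets in ACTH against WKY, SHR against WKY and SHR against ACTH. Under an unadjusted p of 0.05 were 3, 1 and 4 members in the same order, and the 1 in SHR against WKY was Fos with its sign turned (-0.79). The share of all kept probesets under that p was not counted in this fit, so these counts have no background beside them. A scan day is not a day of dissection, and whether arteries scanned on 1 day were also dissected on 1 day is not given in the sources used here.

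**Figure D4:**
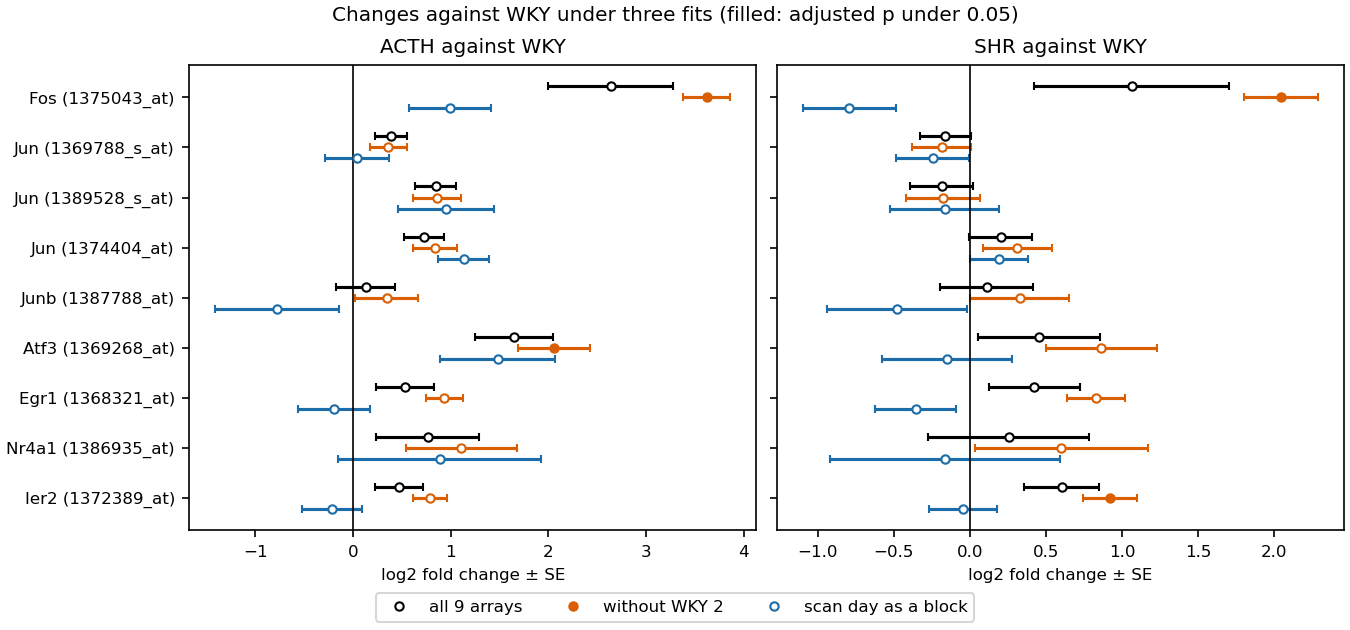
Log2 fold changes with SE against WKY in 3 fits (all 9 arrays, without WKY 2, and scan day as a block) for the 9 kept probesets; filled points have a limma adjusted p under 0.05. Without WKY 2 the Fos point lies at 3.62 for ACTH and 2.04 for SHR, and with the scan day block the Fos point for SHR lies at -0.79.

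Marker and quality measures were set beside the members array by array. Macrophage markers (8 of 10 listed genes were on the array, Lyz2 the brightest) had summed signals of 456, 1340 and 517 in WKY, 2160, 2393 and 1589.7 in ACTH, and 1604, 1361 and 1031 in SHR. As for the mean deviation of the members, WKY 2 was the highest WKY array and ACTH the highest group, although SHR 1 exceeded ACTH 3. Within the other groups the order differed from that of the members. The macrophage sum was lowest of ACTH in ACTH 3, where the member deviation was highest (0.78). It was highest of SHR in SHR 1, where the member deviation was lowest (-0.17). Of the 7 macrophage probesets kept, all 7 had positive differences in ACTH against WKY, with a median of 1.55, and 1 was called, C1qc of the complement C1q complex (2.34 ± 0.47, limma adjusted p = 0.0439). This stood beside 1.25% of all kept probesets called. All 7 were under an unadjusted p of 0.05, beside 12.5% of all kept probesets. The median in SHR against WKY was 0.86 and limma called 0, although 3 were under an unadjusted p of 0.05, beside 16.4% of all kept probesets. Cd14 was called lower in SHR than in ACTH (-0.83 ± 0.18, limma adjusted p = 0.0365), where 3.41% of all kept probesets were called. Blood cell markers, Hbb of haemoglobin among them, summed to 204, 330.2 and 294 in WKY, 437, 346.5 and 469 in ACTH, and 748, 367 and 399 in SHR, again with WKY 2 the highest WKY array and without overlap of WKY with either other group. Adipocyte markers summed to 1046, 1074 and 983 in WKY, 1144.5, 1119 and 955 in ACTH, and 895, 1037 and 918 in SHR, so that WKY and ACTH overlapped. Among them the complement factor Cfd was called higher in ACTH than in WKY (2.36 ± 0.45, limma adjusted p = 0.0344), with signals of 27.2, 111 and 37.0 in WKY and 277, 339 and 159 in ACTH. Cidea was called lower in SHR than in WKY (-1.90 ± 0.23, limma adjusted p = 0.0019) and than in ACTH (-2.08 ± 0.23, limma adjusted p = 0.00116). It did not stand for its list, since 3 of the 4 adipocyte probesets kept had positive differences in SHR against WKY, with a median of 0.65. In SHR against ACTH 2 of the 4 were positive, with a median of -0.25. A larger number of such cells and more mRNA per cell cannot be told apart in whole arteries. GAPDH signal from 3′ over 5′ probesets, a measure of RNA length, ran from 4.91 up to 5.99 on the WKY arrays, from 3.67 up to 4.52 on the ACTH arrays and from 3.57 up to 5.16 on the SHR arrays, and was highest in WKY 2. The beta-actin ratio was 9.77 to 13.6, 8.37 to 9.68 and 8.35 to 9.14. For both ratios all WKY arrays lay above all ACTH arrays. In WKY 1 the ratios were 5.35 and 13.1, with a member deviation of -0.96. In WKY 2 they were 5.99 and 13.6, with a deviation of 0.31, and in WKY 3 they were 4.91 and 9.77, with -0.68. With the GAPDH ratio as a covariate limma called 0 of the 9 members in ACTH against WKY, with 3 under an unadjusted p of 0.05, and 0 in SHR against WKY, with 0 under that p. That fit called 0% and 0.387% of all kept probesets in these comparisons, and their share under the unadjusted p was not counted. The ACTH minus WKY differences were then 3.21 ± 0.94 for Fos and 1.52 ± 0.60 for Atf3, and the Jun call in SHR against ACTH was kept. The part of macrophage, blood and fat cell content, RNA length and tissue handling in the member values was not tested.

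**Figure D5:**
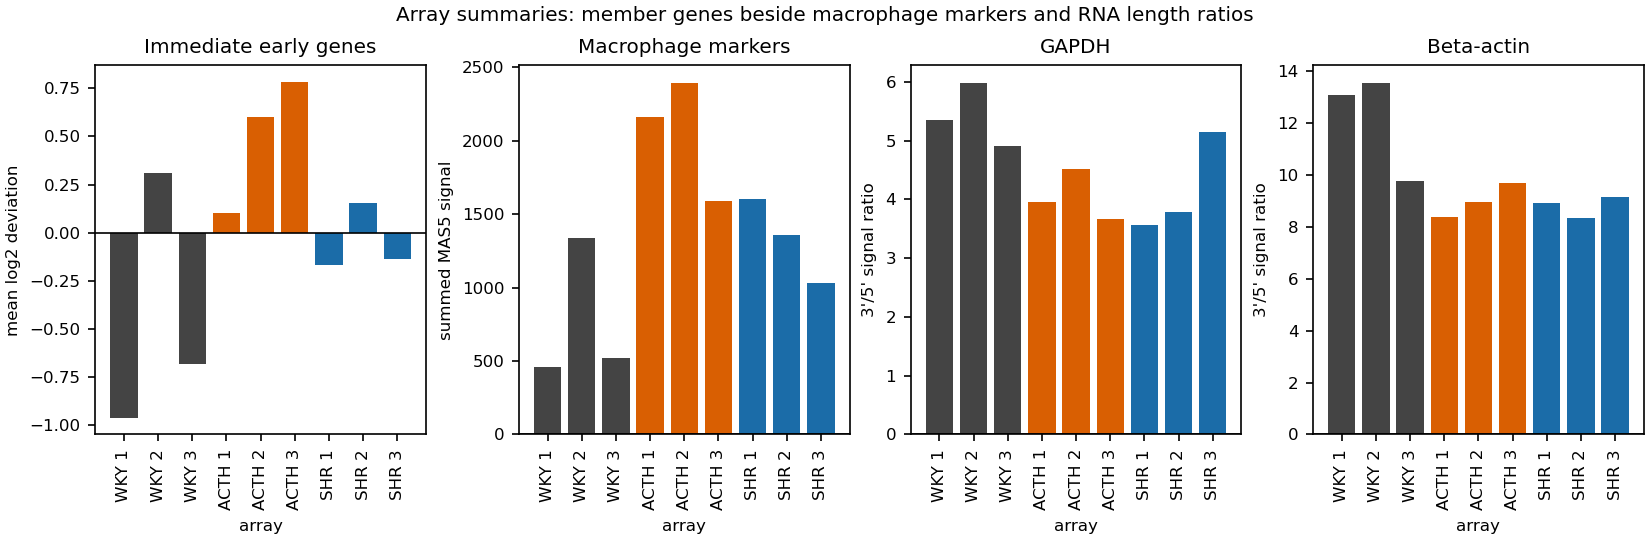
Bars for each of the 9 arrays: mean log2 deviation of the 7 member genes, summed MAS5 signal of the macrophage markers, and the 3′/5′ signal ratios of GAPDH and beta-actin. WKY 2 has a member deviation of 0.31 and a macrophage sum of 1340, both above WKY 1 and WKY 3, and also the highest GAPDH ratio, 5.99.

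Related genes were read from lists of the same response. Other immediate early genes were measured by 31 kept probesets of 26 genes. Under an unadjusted p of 0.05 were 14, 11 and 9 of them in ACTH against WKY, SHR against WKY and SHR against ACTH. The shares of all kept probesets under that p were 12.5%, 16.4% and 17.3%, and limma called 1.25%, 2.04% and 3.41% of all. In ACTH against WKY 2 were called higher, Ier5 (1.06 ± 0.21, limma adjusted p = 0.0414) and Ccn2, the matrix protein also known as connective tissue growth factor (0.91 ± 0.18, limma adjusted p = 0.0443). Gadd45g, a growth arrest and DNA damage gene, was called lower (-1.38 ± 0.19, limma adjusted p = 0.00797). Ier5 signals were 135, 177 and 126 in WKY and 305, 286 and 313 in ACTH, without overlap. The list's median was 0.36, beside 0.73 for the members and 0.02 for all kept probesets. In SHR against WKY the Krüppel-like factor Klf6 was called lower (-0.75 ± 0.14, limma adjusted p = 0.0231), and the list's median was 0.15. In SHR against ACTH Dusp1, a phosphatase that switches off MAP kinases, was called lower (-1.43 ± 0.20, limma adjusted p = 0.0043). Its signals were 1099, 1214 and 1651 in ACTH against 471, 500.1 and 479 in SHR, with 600.0, 949 and 796 in WKY. Gadd45g was called higher in that comparison (0.89 ± 0.19, limma adjusted p = 0.0295). Over the 9 arrays the mean deviation of these 26 genes was -0.32, 0.05 and -0.14 in WKY, 0.11 to 0.27 in ACTH, and 0.01, 0.05 and -0.17 in SHR. WKY 2 had the highest mean in WKY, but 15 of the 26 genes exceeded their mean in WKY 2 and 15 in WKY 3.

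The kinases and factors upstream of the members, among them those of the MAP kinase pathways, had 20 kept probesets and 0 calls by limma in the 3 comparisons. Under an unadjusted p of 0.05 were 2, 5 and 2 for ACTH against WKY, SHR against WKY and SHR against ACTH. This stood beside 12.5%, 16.4% and 17.3% of all kept probesets. AP-1 partners had 11, with 1 call, Maf, lower in SHR than in ACTH (-1.09 ± 0.18, limma adjusted p = 0.0108). Heat shock genes, induced by protein stress, had 15 and 1 call, the chaperone Dnaja1, higher in SHR than in WKY (0.78 ± 0.17, limma adjusted p = 0.0464), and their median in ACTH against WKY was 0.01. Of all kept probesets limma called 3.41% in SHR against ACTH and 2.04% in SHR against WKY.

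Genes known as targets of AP-1 had 16 kept probesets of 11 genes, and in ACTH against WKY 1 was called higher and 4 lower, with a median of -0.26. This stood beside 1.25% of all kept probesets called. Under an unadjusted p of 0.05 were 10 of the 16, beside 12.5% of all kept probesets. The 1 higher was Spp1, which encodes osteopontin (1.41 ± 0.23, limma adjusted p = 0.0180), whereas the collagen chain Col1a2 (-1.08 ± 0.15, limma adjusted p = 0.00799) and the cell cycle cyclin Ccnd1 (-0.98 ± 0.18, limma adjusted p = 0.0269) were among the lower. Limma called 0 in SHR against WKY, and 4 were under an unadjusted p of 0.05, beside 16.4% of all kept probesets. In SHR against ACTH 3 were called higher, 2 probesets of Ccnd1 and 1 of Col1a2, beside 3.41% of all kept probesets called. Glucocorticoid response genes had 11, of which 7 were under an unadjusted p of 0.05 in ACTH against WKY, beside 12.5% of all kept probesets. Limma called 1.25%, 2.04% and 3.41% of all kept probesets in ACTH against WKY, SHR against WKY and SHR against ACTH. In ACTH against WKY the repressor Nfil3 was called higher (1.80 ± 0.32, limma adjusted p = 0.0262), and the clock gene Per1 (-2.92 ± 0.55, limma adjusted p = 0.0328) and the mTOR inhibitor Ddit4 (-1.40 ± 0.22, limma adjusted p = 0.0165) lower. Per1 signals were 113, 142 and 86.4 in WKY and 8.20, 8.46 and 46.2 in ACTH. In SHR against WKY the cell cycle inhibitor Cdkn1a was called lower (-1.25 ± 0.20, limma adjusted p = 0.00946), and in SHR against ACTH Tsc22d3, or GILZ, was called higher (0.80 ± 0.15, limma adjusted p = 0.0173).

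The probesets with 1 gene symbol whose log2 signals were most like the members' mean over the 9 arrays were listed from 7667 compared, by Pearson's r, as a description of arrays that share groups and scan days. They were Steap2 (0.94), Sgsm2 (0.92), Cd68 (0.92), Mettl9 (0.92), Ccn1 (0.91), C1qa (0.90), Mmp3 (0.90), Rrs1 (0.89), Fgfr1 (0.89) and Ccn5 (0.89). Among them Ccn1 is an immediate early gene, Mmp3 a matrix protease listed as an AP-1 target, and Cd68 and C1qa are macrophage markers. Ccn1 signals were 83.4, 188 and 42.1 in WKY, 208, 319 and 342 in ACTH, and 106, 206 and 107 in SHR. Cd68 signals were 23.7, 64.1 and 21.7 in WKY, 61.2, 80.5 and 68.0 in ACTH, and 53.5, 58.1 and 50.7 in SHR. In both, WKY 2 lay above WKY 1 and WKY 3, as in the profile by which they were chosen, so this order comes with the choice. Steap2, a metalloreductase, and Ccn5, a relative of Ccn1 and Ccn2, were called higher in ACTH than in WKY (limma adjusted p = 0.0323 and 0.0299). These calls are not independent of the choice, since the profile used to choose was itself higher in ACTH than in WKY 1 and WKY 3. Steap2 signals were 30.3, 63.7 and 30.2 in WKY and 93.9, 101 and 139 in ACTH.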

How the data were processed

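RNA of saphenous artery branches from WKY, ACTH-treated WKY and SHR was hybridised to 9 RAE230A arrays after 2 rounds of amplification, which favours 3′ ends. The authors deposited intensity values, linear MAS5 signals scaled to a target of 150, and the table holds no detection calls. Trimmed means (2% at each end) were 150.03 to 150.04. Signals were placed in groups by treatment and strain in the labels. The 57 control probesets were left out, and 9038 of 15866 others were kept at a third-highest signal of at least 45. Of these, 7676 have 1 symbol in the platform annotation, 219 several and 1143 none. Symbols were checked through the RefSeq table of GRCr8, which held 12754 of 12789 identifiers and changed 0.

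Log2 signals of the 3 groups were fitted with limma 3.58.1 in R 4.3.3 (lmFit, eBayes, 6 residual and 4.51 prior degrees of freedom), with two-sided p-values adjusted by the Benjamini-Hochberg method. Array profiles used the brightest kept probeset of a gene. The fit was tested on simulated data. Alternatives were other filters, quantile normalization, median centring, a pseudocount of 16, a variance trend, array weights, blocks for scan day and for replicate number, the GAPDH ratio as a covariate, fits of 2 groups alone, the study's F test and contrasts, and each array left out.

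Probesets named are all those of the members, up to 3 called probesets of each other list in a comparison with the lowest adjusted p, and the 10 most like the members' mean; list members named for their own signals follow from these. The genes and lists were chosen with earlier results of these data known. With 3 arrays per group the number of arrays limits the precision, and p-values measure the spread between pools. Endothelial, skeletal muscle, adipocyte and Schwann cell markers were measured as well, and their sums for each array ran from 2334 to 3109.5, 1163 to 1521.5, 895 to 1144.5 and 1434 to 2186. Single endothelial and skeletal muscle markers were called within these sums. In SHR against WKY Flt1 (1.71 ± 0.23) and Acta1 (0.92 ± 0.15) were higher, and Vwf (-1.28 ± 0.21) and Myh1 (-0.79 ± 0.16) lower. In SHR against ACTH Flt1 was higher (1.29 ± 0.23). Promoter windows and motif searches used RefSeq sequences.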

Additional observations from a re-analysis of the deposited data

Results flagged for a closer look

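In the fit of all 9 arrays, the second Jun probeset (1389528_s_at) was the only one of the 9 member probesets kept whose change differed between both models of hypertension by a test of the difference itself. Relative to WKY it was 0.85 in ACTH and -0.19 in SHR, and SHR minus ACTH was -1.03 ± 0.21 on the log2 scale (limma adjusted p = 0.0246), with all 3 SHR arrays below all 3 ACTH arrays. ACTH 3 held the highest signal, 589.8, and without it the difference was -0.80 (adjusted p = 0.0729). Without WKY 2 the SHR minus ACTH difference of Fos (-1.58) was called too. In the fit of the ACTH and SHR groups alone Fos was also called (-1.58 ± 0.21, limma adjusted p = 0.00746), beside 0.0471 for this Jun probeset. Jun was therefore not the only member that differed between the models in every fit. Single outlying arrays were not tested, and WKY 2 was described by its values.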

How the results depend on the processing

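The number of members called depended on settings in every comparison. In ACTH against WKY it went from 0 to 2 with log2 of signal plus 16 (Fos and Atf3), where 1.66% of all probesets tested were called. It went to 3 with a variance trend (Fos, Atf3 and Jun 1389528_s_at), beside 1.78%, and to 1 at the thresholds of the study's methods, beside 4.16%. With single arrays left out it was 0 to 2, beside 0.376% to 1.5%. The 2 were Fos and Atf3 without WKY 2, beside 1.5%. In SHR against WKY leaving out single arrays gave 0 to 2, beside 1.11% to 2.49% of all. The 2 were Fos and Ier2 without WKY 2, beside 2.49%. In SHR against ACTH, 1 became 0 with the scan day block (0.376% of all), with all non-control probesets (0.328%) and with the study's test after Benjamini-Hochberg adjustment (1.33%). It became 2 with array weights (Jun 1369788_s_at and 1389528_s_at, 9.9%) and in the fit of 2 groups alone (Fos and Jun 1389528_s_at, 3.63%). With single arrays left out it was 0 to 2 (1.19% to 3.56%). In the F test, 1 became 0 with all non-control probesets (0.397% of all tested) and the GAPDH covariate (1.94%). The same held with scan day as a block (0.443%) and the study's test after adjustment (1.29%). The count became 2 at a mean signal of at least 100 (5.02%). With log2 of signal plus 16 (4.96%), a variance trend (5.41%) and array weights (8.29%) it became 3. With single arrays left out it was 0 to 4 (1.8% to 4.35%). With array weights all calls went from 308 to 895 in SHR against ACTH (9.9% of kept probesets) and from 372 to 749 in the F test (8.29%), so the members' counts rose with those of all probesets. The causes were not tested.

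Replicate numbers do not pair the arrays, since same-numbered deviations correlated at -0.07 to 0.13. With the replicate block the number of members called in ACTH against WKY was 1, Atf3 (adjusted p = 0.0366), and kept probesets called went from 113 to 97. Over all probesets tested, the 113 calls in ACTH against WKY became 0 with all non-control probesets, with the GAPDH covariate and with scan day as a block, and the 308 in SHR against ACTH became 52, 283 and 34.

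Signs turned only for differences that were not called. With scan day as a block these were Junb (-0.78), Egr1 (-0.20) and Ier2 (-0.22) in ACTH against WKY, Fos (-0.79), Junb (-0.48), Atf3 (-0.15), Egr1 (-0.36), Nr4a1 (-0.16) and Ier2 (-0.045) in SHR against WKY, and Junb (0.30) in SHR against ACTH. With array weights they were Junb in ACTH against WKY (-0.16) and in SHR against ACTH (0.34), and Nr4a1 in SHR against ACTH (0.014). With the GAPDH covariate Jun 1369788_s_at (0.020), Jun 1374404_at (-0.012) and Nr4a1 (-0.018) turned in SHR against WKY. Junb in SHR against ACTH was 0.036 with quantile normalization and 0.048 with median centring. With single arrays left out, Junb ran from -0.14 to 0.47 in ACTH against WKY, from -0.048 to 0.33 in SHR against WKY and from -0.36 to 0.25 in SHR against ACTH. In SHR against WKY Nr4a1 ran from -0.33 to 0.60 and Jun 1369788_s_at from -0.29 to 0.0072, and in SHR against ACTH Egr1 ran from -0.27 to 0.011. Of the other single differences 517 kept their direction and side of the threshold, 13 passed it and 7 no longer did. Signals of the 5 dim probesets have no detection calls, and changes in them could not be resolved.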
